A study of Mus musculus with 24 samples.

Results

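Total mRNA was compared between vehicle-treated KP organoids, grown from mouse pancreatic tumours, and vehicle-treated N organoids, grown from the ducts of normal mouse pancreas. The comparison took the 6 total mRNA libraries of vehicle-treated organoids, 3 of each type, among the 24 libraries of the series. The other libraries were of polysome-associated mRNA or of organoids exposed to CR-31, a drug that blocks the eIF4A helicase of translation initiation. Total mRNA was RNA set aside from each lysate before the sucrose gradient, so it measures transcript level and not ribosome loading. KP organoids carried a p53 R172H allele and an activated oncogene, which in the mice of origin are switched on by Cre under the Pdx1 promoter, while N organoids were wild type. The strains were on a C57Bl/6J background, the organoids were maintained in a medium with RSPO1, Noggin, FGF10, EGF and N-acetylcysteine, of which the last 2 were left out for the experiments, and both types received DMSO as vehicle. These are organoid cultures and not whole tissue, and the labels do not say whether the 3 replicates of a type came from separate mice or cultures. If they did not, the p-values below measure the spread between these samples only. The question was which groups of transcripts are higher or lower in the tumour organoids before any translational step.

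Pancreatic ducts are lined by a simple epithelium that makes keratins of internal epithelia, secretes bicarbonate and depends on transcription factors such as SOX9 and PDX1. The RAF, MEK and ERK kinases signal to genes of growth and to feedback inhibitors of the same pathway, and p53 is a transcription factor of stress and arrest genes whose R172H form has lost normal DNA binding. Cells that enter the cycle raise E2F target genes for DNA replication and then a later set of genes for the spindle and chromosome segregation. Interferon and NF-kB pathways, which epithelia share with immune cells, drive antigen presentation genes, chemokines and complement.

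The 6 libraries held between 86264727 and 144504307 counted reads, and libraries of a type differed far beyond counting noise (chi-square between a pair of libraries, divided by the number of genes, from 264 to 1011, against a value near 1 for noise). In a principal component analysis of the 12 total mRNA libraries, the first component, with 51% of the variance, separated the types, and the second, with 18.2%, set replicate 1 of N apart in both treatments. The labels name the lane of each library, and no lane held both types, so a lane and the organoid type cannot be told apart. Counts of the Y-linked genes Ddx3y, Eif2s3y, Kdm5d and Uty summed to 0, 0 and 7256 in N and to 5665, 2389 and 3 in KP, so replicate 3 of each type differed in sex-chromosome content from the other two. The labelled duct origin was checked on 14 duct markers, all above the detection filter, whose level summed to 13600, 15400 and 10400 CPM in N and to 6560, 10900 and 9630 CPM in KP organoids. Here CPM stands for counts scaled to a common library size by the TMM method, and values are listed for replicates 1, 2 and 3 in that order throughout. Of these markers Krt19, Krt7, Krt8 and Cdh1, a keratin set and the epithelial cadherin, did not pass the test, while Epcam, Krt18, Sox9 and Spp1 were among those lower and Pdx1 higher in KP organoids. Acinar, endocrine, fibroblast and endothelial markers that passed the filter were at trace level, with sums of at most 5.44 CPM in any vehicle library, and of them Col1a1 and Flt1 were called, both lower in KP organoids. Immune markers were the exception, with 234, 510 and 530 CPM in N and 89.9, 101 and 196 CPM in KP, nearly all of it Cd14. In bulk RNA, fewer cells of a kind and less RNA per cell cannot be told apart. Epcam lost its call without N replicate 2 or KP replicate 1, and Flt1 without N replicate 3 or KP replicate 1.

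Of 12209 genes that had reads in all 24 libraries, 3441 (28.2%) were called, meaning an adjusted p under 0.25, the study's threshold (edgeR's quasi-likelihood test with Benjamini-Hochberg adjustment). The KP level was higher for 1583 genes (13%) and lower for 1858 genes (15.2%). At an adjusted p under 0.05, 444 genes (3.64%) were higher and 646 (5.29%) lower, together 8.93% of those tested. That stricter count of 1090 genes was 512 without N replicate 2, 356 without N replicate 3, 230 without KP replicate 1, 664 without KP replicate 2 and 584 without KP replicate 3, and 1834 with DESeq2. It was 1898 without N replicate 1 in the vehicle libraries alone, 655 with a replicate block shared by N and KP and 4076 with a replicate block within each organoid type. The lower side held the larger differences, since 1148 genes were called lower by over 2-fold and 612 called higher by as much. Over all tested genes the median log2 fold change was -0.03 and the median of its size was 0.365. The 3 KP libraries lay above all 3 N libraries for 1942 genes and below them for 1999 genes, together 32.3% of those tested (15.9% above and 16.4% below). Each list of genes described below is to be read against these shares. With 1 library left out the count of called genes ran from 1681 without KP replicate 1 and 1959 without N replicate 3 to 3997 without N replicate 1. List counts depended on single libraries too, and 53 of 76 counts, higher and lower for 38 lists, changed by over 1.5 times without at least 1 library, as did 26 of the 30 counts of 1 or 2 genes. Likewise the median changed sign in 8 lists, whose medians over all libraries lay within 0.23 of 0. The count of called genes was 5790 when replicate 1 of N was left out of a fit of the vehicle libraries alone, an alternative chosen after seeing the data.

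**Figure D1:**
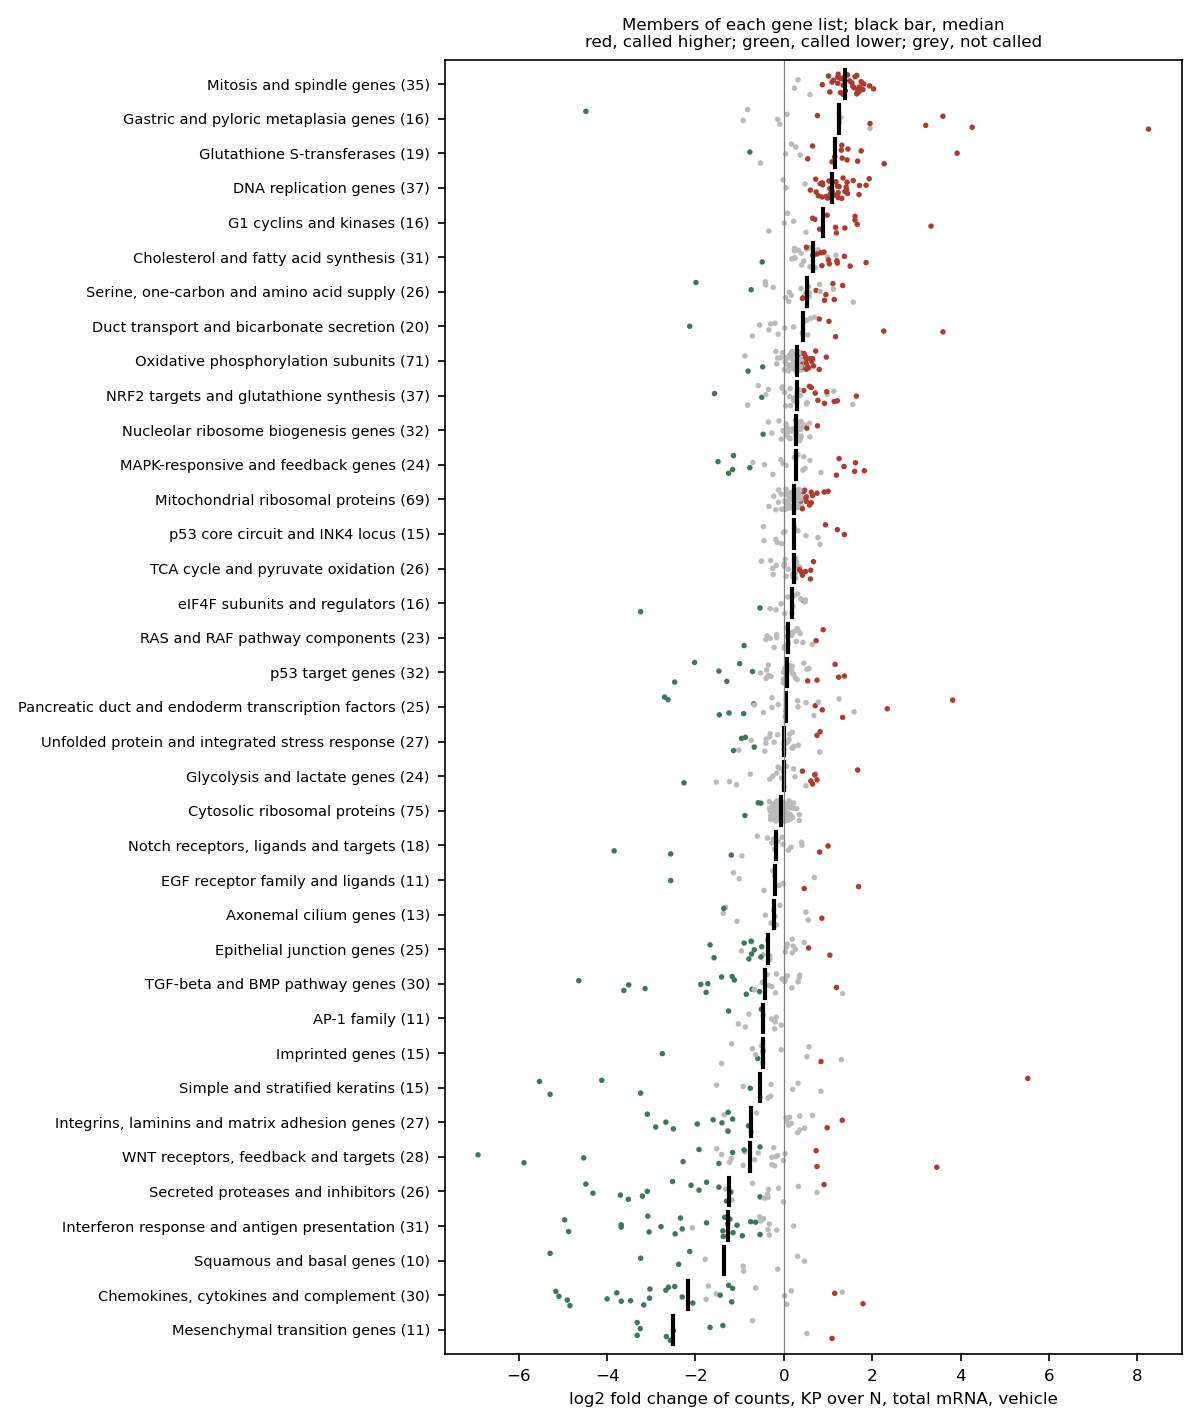
Each point is a tested gene of a list, placed at its log2 fold change of counts in KP over N organoids (x axis, total mRNA, vehicle, 3 libraries each); rows are lists with the number of tested genes in parentheses, sorted by median (black bar). Red points were called higher, green points lower and grey points not called at an adjusted p under 0.25; mitosis, gastric metaplasia, glutathione transferase and replication genes lie at the top, and interferon, squamous, chemokine and mesenchymal genes at the bottom.

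Cell cycle lists had the largest shares of members called higher among the lists examined. Among 37 DNA replication genes, 34 were higher and 0 lower in KP organoids and the median log2 fold change was 1.09, and in 31 of them every KP library lay above every N library. Their level summed to 1090, 1020 and 795 CPM in N and 2240, 1720 and 2160 CPM in KP, a ratio of the group means of 2.1. Mcm3, a subunit of the replicative helicase, was at 28.5, 24.8 and 19.6 CPM in N and 88.9, 74.1 and 73.6 CPM in KP. All 3 KP libraries lay well above the N libraries, at a log2 fold change of 1.70 ± 0.24 (SE from the edgeR fit, n = 3 each, edgeR adjusted p = 0.00278). Mcm10, which helps to load DNA polymerase alpha at origins, stood at 5.31, 4.18 and 3.51 CPM in N and 19.1, 13.3 and 17.3 CPM in KP, 3.81-fold higher by the fit. Cdc6, a licensing factor that loads the helicase, was measured at 5.18, 6.45 and 5.54 CPM in N and 19.5, 14.5 and 21.9 CPM in KP. Rpa2, a subunit of the single-strand binding protein, was higher by 1.43 on the log2 scale, and its groups did not overlap either. Orc2, Orc5 and Rfc1 were the members that did not pass.

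Among mitosis and spindle genes the share was as large, with 32 of 35 called higher, 0 lower and a median log2 fold change of 1.39. Their summed level was 776, 858 and 559 CPM in N and 2110, 1240 and 1950 CPM in KP, and KP replicate 2 was the lowest of the KP libraries. Aurkb, the kinase of the chromosomal passenger complex, was at 17.8, 20.5 and 13.4 CPM in N and 70.4, 50.04 and 58.7 CPM in KP. That is a log2 fold change of 1.79 ± 0.32 (edgeR adjusted p = 0.00859), with no overlap between the types. Cdk1, the kinase that starts mitosis, stood at 57.9, 65.8 and 39.9 CPM in N and 167, 110.3 and 152 CPM in KP, 2.62-fold higher. For Top2a, the topoisomerase that untangles sister chromatids, the values were 22.3, 11.2 and 11.3 CPM in N and 63.5, 34.7 and 48.9 CPM in KP. Mki67, the proliferation marker Ki-67, was less uniform at 7.66, 5.25 and 4.24 CPM in N and 28.9, 3.63 and 22.3 CPM in KP, because KP replicate 2 lay below every N library. Its log2 fold change was 1.67 ± 0.60 with an edgeR adjusted p of 0.107. Bub3, Pttg1 and Anln did not pass. Mki67 lost its call without N replicate 3 or KP replicate 1.

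Among 16 G1 cyclins, kinases and E2F factors 11 were higher and 0 lower, with a median of 0.89. E2f2, an activating E2F, was at 0.983, 1.30 and 1.05 CPM in N and 13.96, 8.10 and 11.6 CPM in KP. Its log2 fold change of 3.33 ± 0.42 (edgeR adjusted p = 0.00158) was the largest of the 3 cell cycle lists. Ccne1, the cyclin partner of CDK2, was at 10.8, 9.28 and 9.87 CPM in N and 25.7, 27.3 and 24.8 CPM in KP and Cdk2 itself was higher by 0.98 on the log2 scale. E2f8, a repressive E2F that is itself a target of E2F1, was 3.16-fold higher. Ccnd1, the cyclin induced by growth signals, varied more, at 1191, 459.6 and 769 CPM in N and 1393, 2779 and 1341 CPM in KP, and its lowest KP library was only a little above the highest N library. Cdk4, Cdk6 and E2f3 did not pass. Counts of the 3 cell cycle lists were within 1.5 times of these values without any single library, and without N replicate 1 in the vehicle libraries alone they were 36, 33 and 14 higher and 0 lower. Ccnd1 lost its call without N replicate 2 or 3 or KP replicate 2.

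Promoters of these genes are shown because the cycle is known to be ordered by promoter elements, E2F sites for replication genes and the cell cycle homology region for mitotic genes. The letters TTTGGCGC, 1 form of an E2F site, were searched on both strands from 250 bases before to 50 after each start in RefSeq promoters, which covered 8848 of the tested genes, counting all listed starts of a gene. They were present in 6 of 30 replication genes with a promoter (20%), against 1.2% of all tested genes, and another form, TTTCGCGC, was in 5 of 30 (16.7%) against 0.712%. The letters TTTGAA of the homology region were in 24 of 31 mitosis genes (77.4%), against 14% of all tested genes, 19.2% of genes called higher and 13.1% of genes called lower. These motifs were chosen after the values were seen, and a match describes letters and not a bound site. The windows below run 5′ to 3′ on the gene's strand (GRCm38.p6), with the matched letters in capitals.
Mcm6 (chr1:128359797-128359826, minus strand): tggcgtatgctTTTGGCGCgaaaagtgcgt
Mcm5 (chr8:75109349-75109378, plus strand): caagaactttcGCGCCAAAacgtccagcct
Orc1 (chr4:108579416-108579445, plus strand): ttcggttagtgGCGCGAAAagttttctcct
Cdk1 (chr10:69352966-69352995, minus strand): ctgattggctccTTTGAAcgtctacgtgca
Mki67 (chr7:135716478-135716507, minus strand): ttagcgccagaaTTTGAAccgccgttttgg
Top2a (chr11:99024351-99024380, minus strand): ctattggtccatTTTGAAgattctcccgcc
Ube2c (chr2:164769888-164769917, plus strand): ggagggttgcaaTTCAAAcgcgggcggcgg
All 7 genes were called higher in KP organoids, Mcm6 among them at 54.8, 44.6 and 34.2 CPM in N and 111, 104 and 99.4 CPM in KP. The windows were picked with the calls known, and Bub3, which also holds TTTGAA, was not called. Mki67 lost its call without N replicate 3 or KP replicate 1.

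Replication-dependent histone genes, which were picked out after their values were seen, gave 14 higher and 4 lower of 58 tested, with a median of 0.63. Their messages lack a poly(A) tail in cycling cells, so libraries of polyadenylated RNA hold few of them. The summed level was 728, 1370 and 709 CPM in N and 4610, 1360 and 5220 CPM in KP organoids. KP replicate 2 lay within the N range while the other KP libraries were several times above it. Hist1h2ac, which codes for a histone H2A, varied widely among the KP libraries, at 0.389, 0.660 and 0.714 CPM in N and 81.6, 10.1 and 1.79 CPM in KP. Hist1h2ak had its highest value in KP replicate 2, at 0.185, 0.590 and 0.282 CPM in N and 2.73, 27.2 and 1.52 CPM in KP. Near-identical copies make single histone counts uncertain where reads with several matches were discarded.

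**Figure D2:**
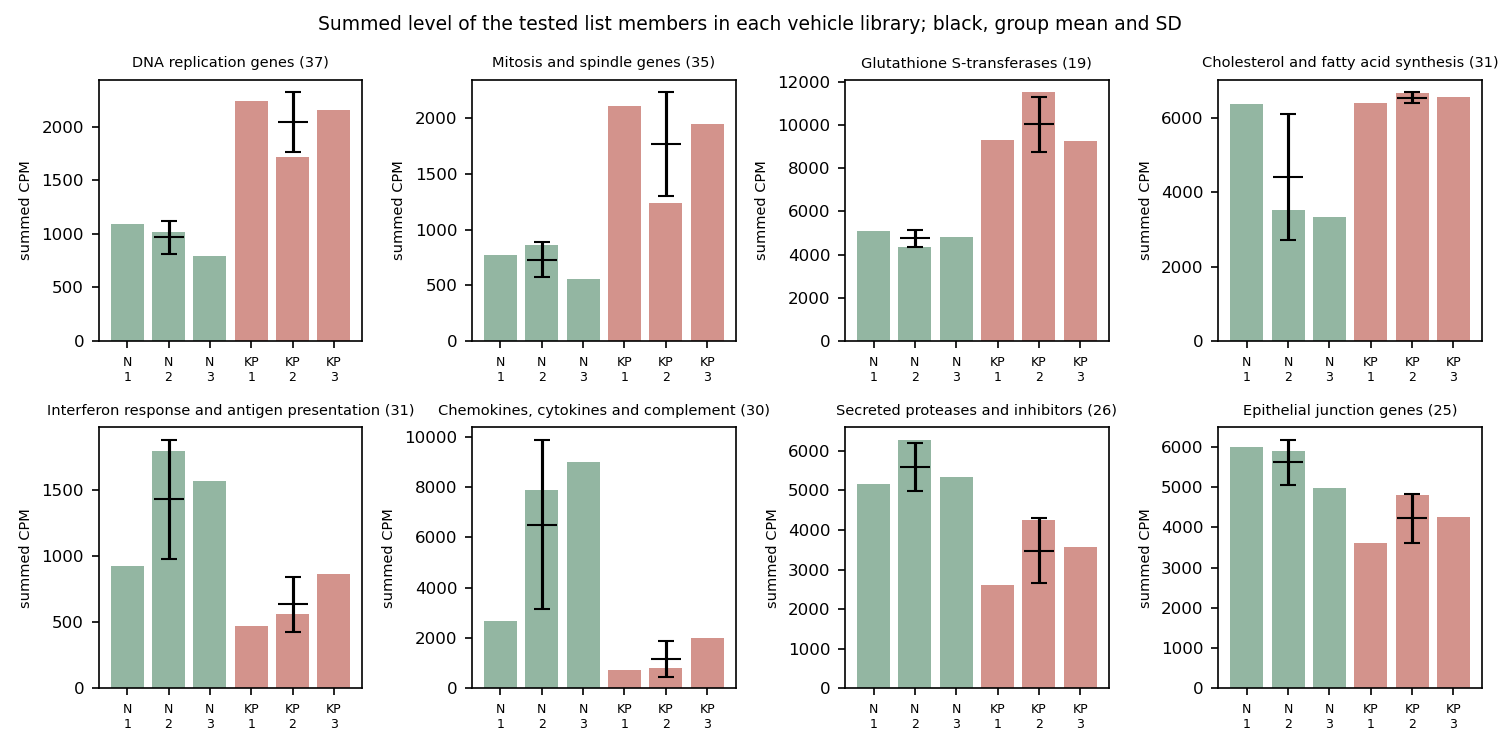
Bars give the summed level (y axis, CPM, linear from 0) of the tested members of 8 lists in each vehicle library (x axis, N replicates 1 to 3 in green and KP replicates 1 to 3 in red); black marks are the group mean and SD over 3 libraries. All 3 KP bars stand above all 3 N bars in the upper row, where N replicate 1 nearly reaches the KP bars for lipid synthesis, and below them in the lower row.

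Glutathione S-transferases, enzymes that attach glutathione to reactive compounds, had most of their tested members called higher. Of 19 tested members 13 were higher and 1 lower, the median log2 fold change was 1.15, and their summed level was 5090, 4340 and 4820 CPM in N and 9320, 11500 and 9270 CPM in KP libraries. Gstt2, a theta-class transferase, was at 8.42, 10.9 and 13.4 CPM in N and 224, 169 and 102 CPM in KP. Every KP library lay above every N library, at a log2 fold change of 3.92 ± 0.53 (edgeR adjusted p = 0.0024). The other theta-class genes, Gstt3 and Gstt1, were 3.18-fold and 2.48-fold higher. The mu-class gene Gstm1 was at 241, 309 and 184 CPM in N and 437, 583 and 542 CPM in KP, with a log2 fold change of 1.09 ± 0.23. Gstm3 of the same class stood at 14.7, 11.5 and 7.98 CPM in N and 29.3, 22.8 and 23.6 CPM in KP. Gstp1 and Gstp2, and several alpha and mu members, have near-identical copies, so their separate counts are uncertain. Gstm5 was the member called lower.

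NRF2, the transcription factor of the antioxidant response, was itself at 332, 364 and 252 CPM in N and 386, 263 and 395 CPM in KP for its gene Nfe2l2, which did not pass (edgeR adjusted p = 0.745). Among 37 NRF2 targets and glutathione synthesis genes 10 were higher and 2 lower, with a median of 0.29. With 1 library left out that median ran from 0.25 without N replicate 3 to 0.45 without N replicate 1. Keap1, which holds NRF2 in check, was at 49.5, 48.7 and 50.8 CPM in N and 75.1, 71.4 and 57.5 CPM in KP, a log2 fold change of 0.45. Idh1 and Pgd, enzymes that make NADPH in the cytosol, were higher by 0.92 and 0.97 on the log2 scale without overlap of the types. Gss, the second enzyme of glutathione synthesis, was 1.54-fold higher. Gclc, the catalytic subunit of the first enzyme, had a wide range in N, at 255, 42.1 and 89.03 CPM in N and 313, 305 and 144 CPM in KP, and did not pass (edgeR adjusted p = 0.423), nor did Gclm, Hmox1, Nqo1 and the cystine transporter gene Slc7a11. The number called higher was 4 without N replicate 2, 6 without N replicate 3, 3 without KP replicate 1 and 4 without KP replicate 2, and the number called lower was 4 without N replicate 1, 0 without N replicate 2, 1 without N replicate 3, 0 without KP replicate 1 and 0 without KP replicate 2. The core letters of the antioxidant response element, TGACNNNGC on either strand, were in 12 of 29 promoters of this list (41.4%), against 17% of all tested genes, 17.5% of those called higher and 15.9% of those called lower. In glutathione S-transferase promoters they were in 3 of 17 (17.6%). Keap1 and Gss lost their call without N replicate 2 or 3 or KP replicate 1 or 2.

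**Figure D3:**
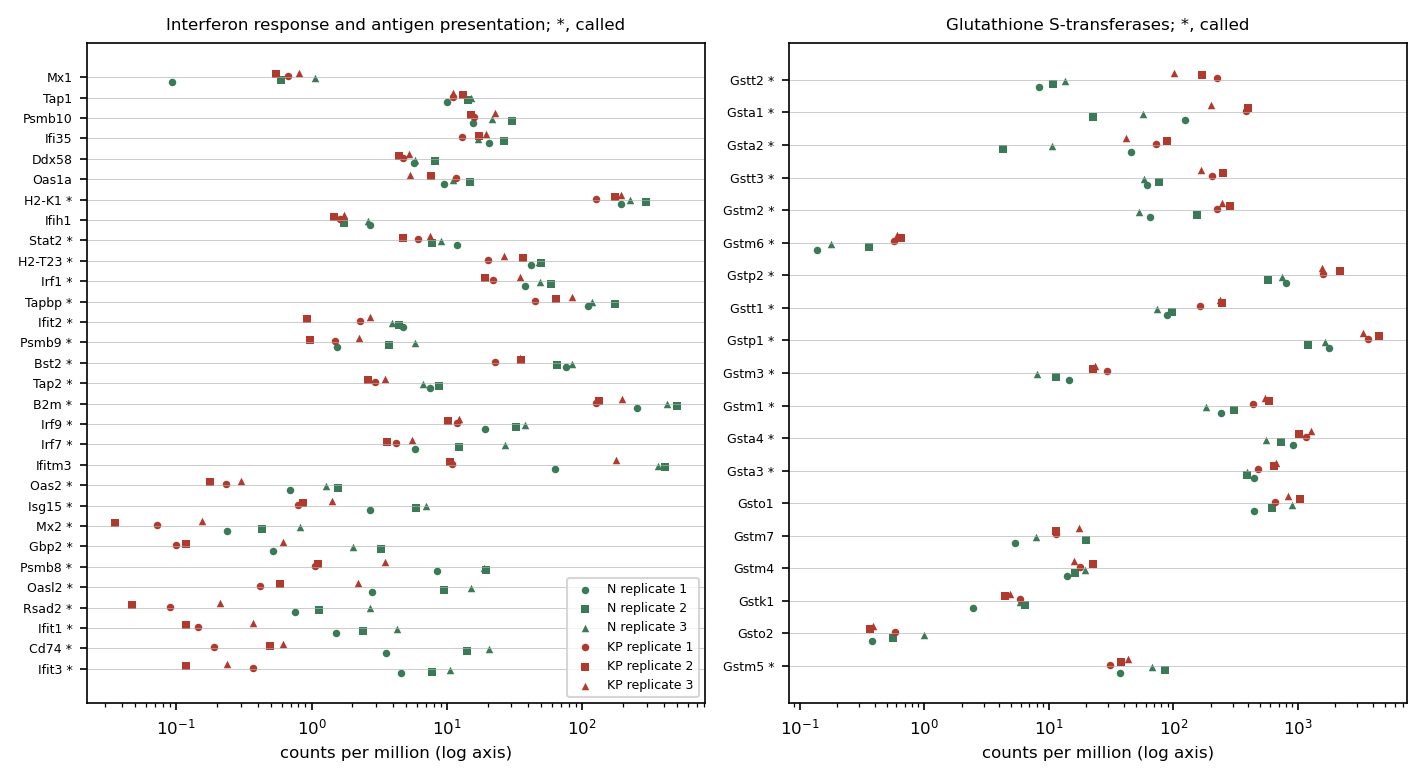
Each point is the level (x axis, CPM on a log axis) of a gene in a vehicle library, green for N and red for KP, with the shape giving the replicate; genes are rows, sorted by log2 fold change, and a star marks genes called at an adjusted p under 0.25, and an interferon list member that was not called is not drawn. In the left panel red points lie to the left of green points for the called interferon and antigen presentation genes other than Gbp2, H2-K1 and Psmb9, and in the right panel red points lie mostly to the right for glutathione S-transferases.

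Lipid synthesis genes held more higher than lower calls in KP organoids. Of 31 cholesterol and fatty acid synthesis genes 14 were higher and 1 lower, with a median of 0.66. Acss2, which makes acetyl-CoA from acetate, was at 9.66, 12.3 and 10.4 CPM in N and 44.3, 45.5 and 27.9 CPM in KP, 3.64-fold higher with an edgeR adjusted p of 0.00429. Pmvk and Ebp, enzymes of the mevalonate pathway and of sterol synthesis, were higher by 1.21 and 0.84 on the log2 scale. Scd1, the stearoyl-CoA desaturase, was at 143, 61.96 and 61.5 CPM in N and 283, 218 and 253 CPM in KP, and all 3 KP libraries lay above the N libraries. N replicate 1 was the highest N library there. The number of the list called higher was 26 without N replicate 1, 7 without N replicate 2, 7 without N replicate 3 and 8 without KP replicate 1, and its median was 1.09 without N replicate 1.

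Mitochondrial gene lists had small positive medians, and most of their members did not pass. Of 71 oxidative phosphorylation subunits 20 were higher and 2 lower, with a median log2 fold change of 0.30, and of 69 mitochondrial ribosomal proteins 14 were higher and 0 lower, with a median of 0.24. Cyc1, cytochrome c1 of complex III, had the largest difference among those named, at 139, 136 and 117 CPM in N and 267, 276 and 220.0 CPM in KP. Atp5g1, a subunit of the ATP synthase ring, was 1.75-fold higher, and Ndufa6 of complex I was lower, at 206, 342 and 386 CPM in N and 176, 194 and 164 CPM in KP. Mrpl12 and Mrps26, proteins of the large and small mitochondrial ribosomal subunit, were higher by 0.91 and 0.58 on the log2 scale. The 26 genes of the TCA cycle and pyruvate oxidation gave 7 higher and 0 lower with a median of 0.24, led by Suclg1 at 0.67. Cytosolic ribosomal proteins, by contrast, gave 0 higher and 3 lower of 75, with a median of -0.07. The counts and medians of these lists depended on single libraries. With 1 library left out the median ran from 0.20 to 0.38 for oxidative phosphorylation and from 0.12 to 0.28 for the TCA cycle. The low ends were without N replicate 1 and without KP replicate 2, in that order, and both high ends without N replicate 2. For oxidative phosphorylation the count called higher was 11 without N replicate 1, 11 without N replicate 3, 6 without KP replicate 1, 9 without KP replicate 2 and 10 without KP replicate 3, for mitochondrial ribosomal proteins it was 8 without N replicate 2 and 6 without KP replicate 1, and for the TCA cycle 4 without N replicate 2, 2 without N replicate 3, 2 without KP replicate 1, 2 without KP replicate 2 and 2 without KP replicate 3. The count of cytosolic ribosomal proteins called lower was 11 without N replicate 1, 1 without N replicate 3, 1 without KP replicate 1 and 1 without KP replicate 2, and without N replicate 3 the list turned to 3 higher with a median of 0.19. With the 6 vehicle libraries alone, 23 mitochondrial ribosomal proteins and 26 oxidative phosphorylation subunits were higher. With a replicate block within each organoid type, which leaves the spread between replicate numbers out of the error, 37 and 43 were higher.

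Glycolysis and lactate genes gave 6 higher and 1 lower of 24, with a median that rounds to 0. Ldha, the lactate dehydrogenase subunit that favours lactate, was at 1054, 897 and 1063 CPM in N and 1822, 1759.6 and 1313 CPM in KP, while Ldhb, the other common subunit, was lower, at 9.27, 21.4 and 20.2 CPM in N and 1.68, 2.76 and 6.18 CPM in KP. The difference was 0.70 ± 0.27 for Ldha and -2.26 ± 0.59 for Ldhb on the log2 scale, and the types did not overlap in either gene. Pgam1 and Hk1 were called higher. The number called higher was 1 without N replicate 2, 2 without N replicate 3, 1 without KP replicate 1 and 0 without KP replicate 2, and the number called lower was 4 without N replicate 1. Serine, folate-cycle and amino acid supply genes gave 8 higher and 2 lower of 26, with a median of 0.53. Mthfd1, a cytosolic enzyme of the folate cycle, was at 34.4, 23.999 and 19.2 CPM in N and 63.3, 75.3 and 56.7 CPM in KP, with an edgeR adjusted p of 0.00947. Psat1, of serine synthesis, was 2.15-fold higher, and Glul, glutamine synthetase, was lower at 16.4, 90.4 and 34.3 CPM in N and 12.6, 15.5 and 7.43 CPM in KP. The number of this list called higher was 15 without N replicate 1, 4 without N replicate 2, 3 without N replicate 3, 3 without KP replicate 1 and 4 without KP replicate 2, and its median was 0.95 without N replicate 1, 0.25 without N replicate 2 and 0.34 without KP replicate 2. Ldha lost its call without N replicate 2 or KP replicate 1 or 2, and Pgam1 and Hk1 without N replicate 2 or 3 or KP replicate 1 or 2, and Psat1 without N replicate 2 or 3 or KP replicate 1, and Glul without N replicate 2.

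Genes of the interferon response and of antigen presentation were lower in KP organoids. Of 31 tested, 0 were higher and 22 lower, with a median log2 fold change of -1.27, against 13% and 15.2% of all tested genes. In 22 genes every KP library lay below every N library, a set that leaves out the called genes Gbp2, H2-K1 and Psmb9 and takes in genes that did not pass, Ddx58 and Ifih1 among them. The level of the list summed to 929, 1800 and 1570 CPM in N and 472, 567 and 868 CPM in KP. Ifit3, an interferon-induced antiviral protein, was at 4.56, 7.74 and 10.5 CPM in N and 0.369, 0.118 and 0.236 CPM in KP. The difference was -4.96 ± 0.65 on the log2 scale (edgeR adjusted p = 0.00211). B2m, the invariant chain of MHC class I, was measured at 253, 499.8 and 425 CPM in N and 125, 133 and 198 CPM in KP. All 3 KP libraries were below the lowest N library, 2.58-fold by the fit. Tap2, a subunit of the peptide transporter that loads class I, stood at 7.45, 8.74 and 6.66 CPM in N and 2.93, 2.59 and 3.47 CPM in KP. Bst2, or tetherin, which holds budding virus at the cell surface, was at 76.3, 64.5 and 83.6 CPM in N and 22.7, 35.4 and 34.9 CPM in KP. In both genes the lowest N library was well above the highest KP library. Cd74, the invariant chain of MHC class II, was 29.2-fold lower, at 3.56, 13.97 and 20.6 CPM in N and 0.189, 0.495 and 0.619 CPM in KP.

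The number of interferon and antigen presentation genes called lower was 25 without N replicate 1 in the vehicle libraries alone, and with all other libraries kept it was 14 without N replicate 3 and 13 without KP replicate 1. Markers of immune cells were lower too. Csf1r, the receptor for colony-stimulating factor 1, was at 9.77, 10.7 and 11.5 CPM in N and 0.990, 1.21 and 1.03 CPM in KP. Cd14, a lipopolysaccharide co-receptor, was at 219, 492 and 503 CPM in N and 85.5, 97.2 and 193 CPM in KP. Cd68, a lysosomal protein of macrophages, was also called lower, so all 3 of the immune markers that passed the filter, of 10 listed, were lower. The defining leukocyte genes Ptprc, Adgre1, Lyz2, Cd3e, Itgam and Fcer1g had a count of 0 in at least 1 library of the series and did not enter the test, and in the vehicle libraries Itgam was at most 0.998 CPM and Fcer1g, the next of them, at most 0.0471 CPM. The part of immune cells in these differences was not tested. Cd68 lost its call without N replicate 3 or KP replicate 3.

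Promoters of the interferon list are shown because its genes are known to share the interferon-stimulated response element. The core searched was GAAA, any 2 bases and GAAA again, on both strands. It was chosen after the values were seen and these letters were in 13 of 25 promoters of the list (52%), against 3.61% of all tested genes, 3.03% of those called higher and 5.41% of those called lower. The windows are from RefSeq promoters on GRCm38.p6, 5′ to 3′ on the gene's strand, with the matched letters in capitals, which begin with TTTC where the match is on the other strand.
Ifit3 (chr19:34583363-34583392, plus strand): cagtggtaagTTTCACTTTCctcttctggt
Ifit1 (chr19:34640775-34640804, plus strand): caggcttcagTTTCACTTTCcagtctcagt
Isg15 (chr4:156200871-156200900, minus strand): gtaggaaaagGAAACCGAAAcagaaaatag
B2m (chr2:122147538-122147567, plus strand): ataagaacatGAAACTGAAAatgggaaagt
Gbp2 (chr3:142620594-142620623, plus strand): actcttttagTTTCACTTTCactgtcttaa
Rsad2 (chr12:26456553-26456582, minus strand): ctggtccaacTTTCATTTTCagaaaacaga
Each of these 6 genes was called lower, Ifit1 at 1.52, 2.41 and 4.26 CPM in N and 0.144, 0.118 and 0.367 CPM in KP. They were picked with the calls known, and Oas1a, which also holds the core, was not called.

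Chemokines, cytokines and complement genes were mostly called lower in KP organoids. Of 30 tested, 2 were higher and 20 lower, with a median of -2.18, and their summed level in N exceeded that in KP by 5.56-fold. The N sum was 2670, 7870 and 8990 CPM and the KP sum 724, 791 and 2000 CPM, with N replicate 1 the lowest of its type. Csf1, the macrophage colony-stimulating factor, was at 68.2, 132 and 121 CPM in N and 3.54, 5.80 and 10.7 CPM in KP. The types were far apart, at -4.0 ± 0.48 on the log2 scale (edgeR adjusted p = 0.00142). Cxcl1, a neutrophil chemokine, stood at 240.4, 97.5 and 180.3 CPM in N and 31.6, 7.43 and 24.4 CPM in KP. Cxcl17, a mucosal chemokine, was at 14.6, 108 and 60.02 CPM in N and 0.765, 2.18 and 3.16 CPM in KP. Cx3cl1, the membrane-bound chemokine fractalkine, was 2.26-fold lower. Saa3, an acute-phase protein, was lower at 2.11, 8.12 and 11.96 CPM in N and 0.0180, 0.0824 and 0.505 CPM in KP. Il33 and Ccl28 were the members called higher. The number called lower was 13 without KP replicate 1 and 13 without KP replicate 2, and 24 without N replicate 1 in the vehicle libraries alone, while the median was -1.58 without N replicate 3 and -2.78 without KP replicate 3.

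Trp53, the p53 gene, which is altered in KP mice, was at 139, 142 and 105 CPM in N and 109, 126 and 139 CPM in KP, with overlapping groups (edgeR adjusted p = 0.898), and its R172H allele was not read separately. Among 23 RAS and RAF pathway components 2 were higher, Shc1 and Rasal1, and 1 was lower, Rras, with a median of 0.10. The number higher was 0 without N replicate 2, 1 without N replicate 3, 0 without KP replicate 1 and 0 without KP replicate 2. The median was 0.36 without N replicate 1, and in the vehicle libraries alone 10 were then higher. Myc, the growth-promoting transcription factor, was at 138, 54.3 and 66.01 CPM in N and 101, 144 and 122 CPM in KP and did not pass (edgeR adjusted p = 0.49). Cdkn2a, which codes for p16 and p19 and restrains the cycle through RB and p53, was higher, at 97.3, 65.1 and 88.4 CPM in N and 230.2, 221 and 196 CPM in KP. Its groups were clearly apart, at 1.37 ± 0.24 on the log2 scale (edgeR adjusted p = 0.00747). The count table does not separate the p16 transcript from the p19 transcript. Shc1 lost its call without N replicate 2 or 3 or KP replicate 1 or 2, and Rasal1 without N replicate 1 or 2 or KP replicate 1, 2 or 3.

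Genes that respond to ERK went in both directions, 6 higher and 5 lower of 24 with a median of 0.28. Spry2, a feedback inhibitor of receptor signalling, was at 49.9, 26.5 and 28.9 CPM in N and 112, 112 and 99.6 CPM in KP, 3.07-fold higher with no overlap (edgeR adjusted p = 0.0122). Etv4 and Etv5, transcription factors induced by ERK, were higher by 1.25 and 1.36 on the log2 scale, and Etv1, of the same family, by 1.60. Dusp6, the phosphatase that turns ERK off, did not pass, at 191, 46.6 and 81.99 CPM in N and 103, 122 and 107 CPM in KP. Ier3, an early response gene, and Epha4, an ephrin receptor, were lower, with log2 fold changes of -1.49 and -1.14. N replicate 1 was the highest N library for Dusp6, and without it in the vehicle libraries alone the list gave 13 higher, 6 lower and a median of 0.75. The count called higher was 10 without N replicate 1, 2 without N replicate 2, 2 without N replicate 3 and 3 without KP replicate 2, and the count called lower was 2 without KP replicate 1 and 3 without KP replicate 3. With 1 library left out the median of the list ran from 0.03 without N replicate 2 to 0.75 without N replicate 1. Etv4 lost its call without N replicate 2 or 3 or KP replicate 1 or 2, and Etv5 without N replicate 2 or 3 or KP replicate 2.

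Of 11 genes of the EGF receptor family and its ligands 2 were higher, Tgfa and Erbb3, and 1 lower, Egfr, with a median of -0.21. With 1 library left out the median ran from -0.35 without N replicate 3 to -0.07 without N replicate 1. The number lower was 3 without KP replicate 3, and the number higher was 1 without N replicate 2, KP replicate 1 or KP replicate 2. Tgfa, a ligand, was at 85.2, 58.5 and 73.9 CPM in N and 237, 284 and 178 CPM in KP, and every KP library was above every N library. Egfr, its receptor, was at 166, 41.2 and 71.3 CPM in N and 14.02, 13.98 and 19.3 CPM in KP, with every KP library below every N library. The log2 fold change was 1.69 ± 0.28 for Tgfa (edgeR adjusted p = 0.00504) and -2.56 ± 0.54 for Egfr (edgeR adjusted p = 0.0162). Erbb3, another receptor of the family, had a log2 fold change of 0.46, and the ligands Areg, Ereg and Hbegf did not pass. In the AP-1 family, transcription factors of the Fos and Jun type, 0 of 11 were higher and 2 lower, and all 11 had a log2 fold change below 0. Fosl2, which codes for FRA2, was at 78.5, 119 and 98.2 CPM in N and 32.8, 51.9 and 39.1 CPM in KP. Maff, a small MAF protein, was at 98.8, 75.6 and 82.3 CPM in N and 60.7, 71.7 and 47.9 CPM in KP. Erbb3 lost its call without N replicate 1 or 2 or KP replicate 1 or 2, and Maff without N replicate 1, 2 or 3 or KP replicate 1 or 3.

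Of 32 p53 targets 5 were higher (15.6%) and 6 lower (18.8%), near the 13% and 15.2% of all tested genes, with a median of 0.06. Cdkn1a, which codes for p21, was at 351, 340.1 and 214 CPM in N and 335, 375 and 208 CPM in KP, and the types overlapped throughout. Mdm2, which codes for the ligase that degrades p53, was at 137, 79.02 and 83.9 CPM in N and 107, 106 and 85.6 CPM in KP, again with overlap. Pmaip1, the pro-apoptotic protein NOXA, was lower, at 163, 119 and 114 CPM in N and 36.4, 30.6 and 30.2 CPM in KP, without overlap (edgeR adjusted p = 0.0108). The count of these targets called higher was 3 without N replicate 2, 3 without N replicate 3, 3 without KP replicate 1 and 3 without KP replicate 2, and the count called lower was 3 without KP replicate 1. Fas, a death receptor, was 5.53-fold lower, and Ddit4, an inhibitor of mTORC1, 2.77-fold lower. In the p53 core circuit and INK4 locus 3 of 15 were higher, Cdkn2a, Cdkn2c and Chek2, and 0 were lower, and the count higher was 8 without N replicate 1. The eIF4F complex loads ribosomes on capped mRNA, and its genes Eif4a1, Eif4e and Eif4g1 did not pass. Eif4a1, the helicase subunit, was at 1397, 1025 and 1071 CPM in N and 1254, 1040.5 and 1258 CPM in KP. Eif4e, the cap-binding subunit, was at 181, 139 and 129 CPM in N and 207, 125 and 193 CPM in KP. Eif4g1, the scaffold, was at 218, 106 and 90.6 CPM in N and 215, 187 and 176 CPM in KP, with N replicate 1 above every other library. Of 16 subunits and regulators 1 was higher, Eif4a3, and 2 lower, Eif4e3 and Pabpc1. Eif4a3 lost its call without N replicate 2 or 3 or KP replicate 1, 2 or 3, and Pabpc1 without N replicate 3 or KP replicate 1 or 3.

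Adhesion and matrix genes held more lower than higher calls, and most members did not pass. Among 27 integrins, laminins and matrix genes 2 were higher and 11 lower, with a median of -0.74. Itgb6, the integrin chain that with the alpha-v chain activates latent TGF-beta, was at 92.9, 71.4 and 70.96 CPM in N and 8.18, 10.2 and 13.1 CPM in KP. The difference was -2.90 ± 0.31 on the log2 scale (edgeR adjusted p = 0.000874), and KP libraries lay far below N libraries. Itgav, the alpha-v chain, was at 95.8, 61.1 and 110.1 CPM in N and 19.1, 24.96 and 24.8 CPM in KP, 3.88-fold lower. Cd44, the hyaluronan receptor, and Sdc4, a heparan sulphate proteoglycan, were 3.04-fold and 2.39-fold lower. Lamc1, a laminin chain of basement membranes, went the other way, at 52.6, 32.002 and 41 CPM in N and 91.7, 118 and 104 CPM in KP. Without N replicate 1 in the vehicle libraries alone the list gave 7 higher and 12 lower with a median of -0.31.

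Secreted proteases and inhibitors gave 1 higher and 14 lower of 26, with a median of -1.25. Prss23, a serine protease, was at 15.4, 15.1 and 5.80 CPM in N and 0.738, 0.542 and 0.530 CPM in KP, 20.02-fold lower (edgeR adjusted p = 0.00123). Ctsl, a lysosomal cathepsin, was at 213, 183 and 174 CPM in N and 88.3, 87.1 and 73.05 CPM in KP. Timp1, an inhibitor of metalloproteinases, was at 5.94, 9.04 and 11.7 CPM in N and 1.06, 2.46 and 1.14 CPM in KP. Serpinb9, the inhibitor of granzyme B, was 9.18-fold lower. In each of these genes the KP libraries were below the N libraries.

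In the TGF-beta and BMP pathway 1 was higher and 13 lower of 30, with a median of -0.44, and ligands were among them. Tgfb2, a ligand of TGF-beta receptors, was at 48.6, 56.3 and 32.1 CPM in N and 0.900, 3.69 and 7.44 CPM in KP. Inhba, the activin A chain, was at 39.8, 6.23 and 24.6 CPM in N and 0.684, 0.624 and 1.51 CPM in KP. Tgfb1 was 2.66-fold lower, and Bmp1, the protease that releases matrix-bound ligands, was 3.69-fold lower. The number called lower was 8 without N replicate 3. WNT genes gave 3 higher and 9 lower of 28, with a median of -0.77. The ligand gene Wnt10a was at 17.7, 10.9 and 30.4 CPM in N and 0.0540, 0.141 and 0.285 CPM in KP. Wnt7a, another ligand, was at 45.9, 45.5 and 65.1 CPM in N and 0.450, 5.51 and 0.880 CPM in KP. For both ligands every N library was several times above every KP library. Fzd1, a WNT receptor, was at 34.4, 42.2 and 38.1 CPM in N and 6.25, 13.4 and 10.5 CPM in KP. The medium supplies RSPO1, which strengthens WNT signals, to both types. The number of WNT genes called lower was 14 without N replicate 1 in the vehicle libraries alone. Among 18 Notch genes 2 were higher and 3 lower, and the count lower was 5 without N replicate 1. The count higher was 0 without N replicate 2, 1 without N replicate 3, 0 without KP replicate 1, 0 without KP replicate 2 and 1 without KP replicate 3. Lfng, a glycosyltransferase that modifies Notch receptors, was at 72.9, 71.3 and 53.7 CPM in N and 6.12, 14.4 and 13.1 CPM in KP, 5.89-fold lower (edgeR adjusted p = 0.00123).

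Of 11 mesenchymal transition genes 1 was higher and 8 lower, with a median of -2.5, although several were near the detection limit in both types. Fn1, fibronectin, was at 428, 198 and 211 CPM in N and 6.60, 10.8 and 66.4 CPM in KP, and KP replicate 3 stood above the other KP libraries. Vim, vimentin, was at 0.191, 3.82 and 1.14 CPM in N and 0.135, 0.165 and 0.505 CPM in KP. Loxl2, a collagen cross-linking enzyme, was 2.60-fold lower. The number called lower was 5 without N replicate 1, 5 without N replicate 3, 3 without KP replicate 1 and 5 without KP replicate 2, and the median was -1.22 without N replicate 1 and -1.54 without N replicate 3. Without N replicate 1 in the vehicle libraries alone 5 were lower, with a median of -1.22. Epithelial junction genes gave 2 higher and 9 lower of 25. Cldn4, a tight junction claudin, was at 583, 575 and 493 CPM in N and 159, 235 and 159.8 CPM in KP (edgeR adjusted p = 0.00423). Tjp1, the scaffold ZO-1, was higher, at 63.4, 31.5 and 36.6 CPM in N and 127, 72.4 and 70.6 CPM in KP. Cdh1, E-cadherin, did not pass, at 529, 417 and 368 CPM in N and 267, 403 and 380.4 CPM in KP. The number of junction genes called lower was 5 without N replicate 2 and 4 without KP replicate 1. Vim lost its call without N replicate 2 or 3 or KP replicate 1 or 2, and Tjp1 without KP replicate 1.

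The keratins called lower were those of basal or stressed stratified epithelia and Krt18, a simple-epithelium keratin. Of 15 tested keratins 1 was higher and 5 lower, and of 10 squamous and basal genes 0 were higher and 4 lower. Krt6a, a keratin of activated epithelium, was at 63.7, 8.88 and 18.8 CPM in N and 0.639, 0.919 and 0.774 CPM in KP. Krt14, a basal keratin, was at 0.871, 0.338 and 1.28 CPM in N and 0.0630, 0.118 and 0.0815 CPM in KP. Sprr1a, a protein of the cornified envelope, was lower, at 1174, 1059 and 1200.1 CPM in N and 244, 216 and 325 CPM in KP, a log2 fold change of -2.13 ± 0.22 (edgeR adjusted p = 0.000645). Krt4, a keratin of moist stratified epithelia, was higher, at 1.66, 2.00 and 2.67 CPM in N and 121, 158 and 10.4 CPM in KP, and KP replicate 3 was the lowest KP library by a wide margin. Krt8, Krt19 and Krt7, which mark simple epithelia, did not pass.

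Duct regulators and transporters went in both directions. Of 25 pancreatic duct and endoderm transcription factors 5 were higher and 6 lower, with a median of 0.04. The count higher was 3 without KP replicate 1. Sox9, which keeps duct and progenitor identity, was at 83.1, 102 and 54.02 CPM in N and 26.8, 38.02 and 36.1 CPM in KP, 2.37-fold lower (edgeR adjusted p = 0.0156). Foxa1, a pioneer factor of endoderm, and Prox1, a duct and progenitor factor, had log2 fold changes of -2.62 and -2.70. Pdx1, the regulator of pancreas formation, was higher, at 10.9, 15.8 and 11.9 CPM in N and 26.96, 18.9 and 24.7 CPM in KP. Cdx2, the intestinal regulator, was higher too, at 22.3, 19.5 and 21.8 CPM in N and 74.6, 44.03 and 40.9 CPM in KP. Duct transport genes gave 5 higher and 1 lower of 20. Aqp5, a water channel, was at 18.8, 28.3 and 71.9 CPM in N and 402, 737 and 308 CPM in KP, 12.2-fold higher. Slc26a9, a chloride and bicarbonate transporter, was at 9.74, 8.50 and 7.86 CPM in N and 27.8, 69.8 and 27.4 CPM in KP. The basolateral sodium bicarbonate cotransporter Slc4a4 was lower, at 114, 108 and 134 CPM in N and 20.7, 29.8 and 31.2 CPM in KP. Spp1, osteopontin, which marks ducts, was 4.49-fold lower, and Cftr, the apical chloride channel, did not pass, at 3.71, 2.70 and 0.912 CPM in N and 5.79, 0.872 and 5.14 CPM in KP.

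Gastric and pyloric metaplasia genes gave 6 higher and 1 lower of 16, with a median of 1.25. Agr2, a disulphide isomerase needed for mucin folding, had the largest fold change of all tested genes that were called higher. It was at 0.277, 0.181 and 0.141 CPM in N and 91.05, 36.1 and 58.4 CPM in KP, a log2 fold change of 8.25 ± 0.54 (edgeR adjusted p = 4.45e-05). Gcnt3, which branches mucin-type glycans, was at 18.8, 2.01 and 2.78 CPM in N and 132, 121 and 199 CPM in KP, with N replicate 1 between the other N libraries and the KP libraries. Reg3g, a secreted lectin, was at 1.11, 3.08 and 1.04 CPM in N and 38.1, 3.75 and 6.58 CPM in KP, with KP replicate 1 far above the other libraries. Ctse, the gastric protease cathepsin E, was lower, at 7.17, 45.7 and 10.6 CPM in N and 0.387, 1.97 and 0.505 CPM in KP. Muc1, a membrane mucin of ducts, did not pass. The number called higher was 3 without N replicate 3 and 3 without KP replicate 1, and the median was 0.51 without KP replicate 1. Reg3g lost its call without N replicate 3 or KP replicate 1.

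The remaining lists held few called genes. Of 27 genes of the unfolded protein and integrated stress response 2 were higher and 4 lower, of 32 nucleolar ribosome biogenesis genes 2 higher and 1 lower, of 13 axonemal cilium genes 1 and 1, of 15 imprinted genes 1 and 2, and of 4 X-linked genes with a copy on the Y chromosome 0 and 0. The stress response genes called lower numbered 1 without N replicate 3, 1 without KP replicate 1 and 2 without KP replicate 2. Xbp1, the transcription factor of the secretory stress response, was at 333, 896 and 1099.5 CPM in N and 291, 357 and 411 CPM in KP and was called lower. Igf2, the imprinted growth factor, was lower at 1.06, 1.02 and 1.31 CPM in N and 0.108, 0.153 and 0.236 CPM in KP, with N libraries near 1 CPM. None of 39 Hox cluster genes in the table passed the filter. The nucleolar genes called higher numbered 21 without N replicate 1, 0 without N replicate 2, 0 without N replicate 3, 0 without KP replicate 1 and 0 without KP replicate 2. Without N replicate 1 in the vehicle libraries alone, the nucleolar list gave 26 higher and 2 lower with a median of 0.62. Xbp1 lost its call without N replicate 2 or 3 or KP replicate 1 or 2.

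The genes with the largest differences were taken as the 15 higher and the 15 lower with an adjusted p under 0.05, types that did not overlap and at least 5 CPM in the higher type. Besides Agr2, Krt4, Gcnt3 and Gstt2, the higher set held Sult1d1, a sulfotransferase, at 0.0791, 0.291 and 0.0940 CPM in N and 19.8, 8.80 and 6.44 CPM in KP. Atp2a3, the calcium pump SERCA3, had similar values in the 3 KP libraries, at 1.13, 0.605 and 0.827 CPM in N and 17.5, 15.3 and 19.7 CPM in KP, and a log2 fold change of 4.35 ± 0.37 (edgeR adjusted p = 0.000452). Il5ra, the alpha chain of the interleukin-5 receptor, and Bche, butyrylcholinesterase, were higher by 5.07 and 3.99 on the log2 scale. Cyp2d26, a cytochrome P450, Kirrel3, an adhesion molecule, and Shisa2, which retains receptors in the endoplasmic reticulum, were higher by 4.19, 3.98 and 3.75. Rhox5, an X-linked homeobox gene, was at 0.0726, 0.0943 and 1.06 CPM in N and 19.5, 6.29 and 5.33 CPM in KP, and N replicate 3 stood above the other N libraries. Mgat4c, an N-glycan enzyme, varied widely among KP libraries, at 0.251, 0.314 and 0.132 CPM in N and 3.81, 0.742 and 18.7 CPM in KP.

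In the lower set the largest difference was that of Tnfrsf11b, the decoy receptor osteoprotegerin, at 0.521, 18.8 and 54.7 CPM in N and 0.126, 0.271 and 0.147 CPM in KP. N replicate 1 was far below the other N libraries there. The same held for Chil1, a chitinase-like protein, at 1.06, 9.96 and 34.5 CPM in N and 0.0360, 0.0824 and 0.350 CPM in KP. It also held for Slc5a8, a monocarboxylate transporter, at 0.547, 14.2 and 11.8 CPM in N and 0.0540, 0.153 and 0.334 CPM in KP, and for the epoxide hydrolase gene Ephx4, at 1.02, 23.3 and 19.8 CPM in N and 0.0540, 0.624 and 0.554 CPM in KP. Gc, the vitamin D-binding protein, was at 433, 378 and 541 CPM in N and 2.44, 3.43 and 19.9 CPM in KP, 52.3-fold lower in KP, with similar values in the N libraries. Vcam1, a leukocyte adhesion molecule, was at 28.02, 129 and 79.1 CPM in N and 0.441, 0.565 and 1.78 CPM in KP. Ramp1, a co-receptor for the peptide CGRP, and Il18rap, a chain of the interleukin-18 receptor, had log2 fold changes of -6.54 and -6.0. Lce1h of the cornified envelope, Krt6b, Gxylt2, a xylosyltransferase of Notch, and Pde8a, a cyclic AMP phosphodiesterase, had log2 fold changes of -6.43, -5.53, -5.36 and -5.29. All 30 genes kept their call when any single library was left out.

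The filter on counts leaves out genes with a count of 0 in any library. Some of those that a looser filter, edgeR's filterByExpr, let in are given here by their levels alone, since a gene can pass that filter through the type where it is high. They were picked from 1146 such genes by an edgeR adjusted p under 0.05 and at least 5 CPM in the higher type. Being picked by their difference, they do not describe the other genes. Clrn3, a clarin family membrane protein, had 6, 4 and 2 counts in N and 1993, 766 and 601 in KP, or 0.0397, 0.0313 and 0.0187 CPM in N and 17.9, 9.07 and 4.90 CPM in KP. Adh7, the alcohol dehydrogenase of the upper digestive tract, was at 0.0132, 0.0625 and 0 CPM in N and 5.54, 0.438 and 10.6 CPM in KP. BC080695, a gene without a described role here, was at 0.0397, 0.359 and 0.140 CPM in N and 12.3, 1.47 and 1.66 CPM in KP. On the other side Il23a, the p19 chain of interleukin-23, was at 5.96, 3.74 and 6.42 CPM in N and 0.0540, 0.0592 and 0.196 CPM in KP, and all 3 N libraries were far above the KP libraries. The chemokine gene Ccl5 was at 0.979, 6.97 and 13.6 CPM in N and 0.207, 0.178 and 0.171 CPM in KP. Ccl7, a related chemokine gene, was at 1.81, 9.84 and 5.75 CPM in N and 0.0540, 0 and 0.375 CPM in KP. Krt17, a keratin of stratified epithelia, was at 1.87, 4.86 and 10.3 CPM in N and 0.0360, 0.414 and 0.318 CPM in KP. Wfdc18, a small secreted protein with a WAP domain, was at 0.476, 77.7 and 3.50 CPM in N and 0.0991, 0 and 0.0489 CPM in KP. Pglyrp4, a peptidoglycan recognition protein, was at 0.357, 13.2 and 3.39 CPM in N and 0.0270, 0.0237 and 0 CPM in KP. In both, N replicate 2 held most of the N signal.

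The difference between the types was then read in the other libraries. With CR-31, 4868 genes (39.9%) were called in total mRNA and the same call was found for 2928 of the 3441 genes (85.1%), with 1 called the other way. That is 60.1% of the genes called with CR-31. By direction, 19.1% were higher and 20.8% lower. In polysome-associated mRNA of the same vehicle lysates 5289 genes (43.3%) were called and 2631 of the 3441 (76.5%) were called the same way, with 1 the other way. That is 49.7% of the genes called in polysome-associated mRNA, where 20.4% were higher and 22.9% lower. The polysome-associated mRNA shares its lysates with the 6 libraries described here and the CR-31 libraries may share their cultures, so neither is taken as independent. Interferon genes were lower in 22 of 31 with CR-31 and in 23 of 31 in polysome-associated mRNA, replication genes higher in 32 and 31 of 37, and mitosis genes higher in 29 and 24 of 35. Oxidative phosphorylation subunits had a larger count in both, 49 and 55 of 71 higher against 20, and mitochondrial ribosomal proteins 42 and 43 of 69 against 14. Cytosolic ribosomal proteins had 43 of 75 higher with CR-31 and 20 in polysome-associated mRNA, against 0. AP-1 genes were lower in 7 of 11 with CR-31 and 6 of 11 in polysome-associated mRNA, against 2. These counts were not tested against each other, and the comparison with CR-31 was fitted together with the vehicle libraries. Whether the difference between types itself changed with CR-31 was tested in total mRNA as an interaction. edgeR called 0 genes, with 18 at an unadjusted p under 0.05. DESeq2 called 1, the predicted gene Gm8909, at an interaction log2 of 7.11 and a DESeq2 adjusted p of 5.39e-06. Neither fit used the pairing of vehicle and CR-31 libraries by replicate number, whose deviations correlated at 0.36 to 0.91 within a type. The 18 genes are far below a 0.05 share of those tested, so the 0 calls do not show an unchanged difference. With a replicate block within each organoid type edgeR had 110 genes at an unadjusted p under 0.05 and called 1.

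Differences were spread over the genome. The median log2 fold change per chromosome lay between -0.106 (chromosome 18) and 0.078 (chromosome 19), and the share of genes called ran from 9.16% to 15.6% for higher and from 12.8% to 19.1% for lower. In windows of 50 neighbouring tested genes the highest median was 0.354, in the stretch of chromosome 13 from Hist1h2bm to Slc17a1, which holds a histone gene cluster, and the lowest was -0.356, in a stretch of chromosome 18 with 2 genes higher and 13 lower. In RefSeq promoters the AP-1 letters TGACTCA were in 7.81% of genes called lower, 3.9% of genes called higher and 4.78% of all tested genes, searched on both strands. The E-box letters CACGTG were in 9.61%, 11.4% and 11.6%. These shares describe letters, and no test was made of them.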

How the data were processed

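The 24 libraries hold RNA of N and KP organoids, 12 of them total mRNA. Libraries were made with a TruSeq kit, and how mRNA was selected is not given in the sources used here. The authors aligned reads with HISAT2, discarded reads with several matches and deposited a table of read counts per RefSeq coding gene, with an RPKM table (scaled to transcript length and depth by the authors) that was not tested here. The submitters' processing notes name hg38 although the genes are mouse. The tested table took genes with a count above 0 in all 24 libraries (12209 of 19895 entries, 752 of them with several symbols). Counts were fitted with edgeR 4.0.16 (TMM scaling, quasi-likelihood test, Benjamini-Hochberg adjustment) in R 4.3.3 over all 12 total mRNA libraries in 4 groups of organoid type and treatment, which left 8 residual degrees of freedom. CR-31 libraries, which may come from the same cultures, share in that estimate of the spread, and a fit of the 6 vehicle libraries avoids it. The SE given with a log2 fold change is its size divided by the square root of the test's F value. It therefore rests on the spread over all 12 libraries. Log2 fold changes came from the edgeR fit with its default prior count. For log values of single libraries, as in the principal component analysis, 0.5 was added to the CPM. DESeq2 1.42.0 and limma 3.58.1 served as an alternative and for support. Depths of 86264727 to 144504307 counts leave counting error small beside the spread between libraries. The scripts were tested on simulated counts.

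Named genes were the 15 higher and 15 lower described in the report (predicted genes and clones left out), the genes of each list with the smallest adjusted p, and a set of genes central to the model, some of which are not reported here. Genes outside the filter were picked by their adjusted p and level, as stated with them. Other genes, named as exceptions to a count or for a promoter, were chosen after their values were seen. The members and lists were chosen with earlier results of these data known. Promoter sequences are from RefSeq on GRCm38.p6. Alternatives covered scaling, tool, filter, samples, replicate blocks, entries with several symbols and each library left out. Those without N replicate 1 in both treatments or in the vehicle libraries alone, and the interferon, E2F and homology region motifs, were chosen after seeing the data.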

Additional observations from a re-analysis of the deposited data

How the results depend on the processing

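The count of 3441 genes called stayed within 1.5 times under RLE and upper-quartile scaling, DESeq2, both other filters, the 6 vehicle libraries alone and the removal of entries with several symbols. With 1 vehicle library left out it ranged from 1681 to 3997, with 775 to 1886 higher and 906 to 2111 lower. Without N replicate 1 in both treatments it was 4556, with 2186 higher and 2370 lower. In a fit of the vehicle libraries without N replicate 1 it was 5790, with 2871 higher and 2919 lower, and there Mdm2 (log2 0.28) and Ereg (log2 1.06), neither called at first, turned from lower to higher. The cause was not tested. For single genes, 3718 values kept their direction and side of the threshold, 178 fell short of it and 60 came to pass it. List medians stayed within 1 SD of their value over replicates in 624 cases and left that range in 22, while counts of called members moved more often (53 of 76 by over 1.5 times without at least 1 library).

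The deviations of N and KP vehicle libraries with the same replicate number correlated at 0.3, -0.1 and 0.015. Over 3 libraries of each type such values can neither show nor exclude that the numbers pair the types. A replicate block shared by N and KP gave 3966 calls in the vehicle libraries, 4 mesenchymal genes lower in place of 8 and 16 WNT genes lower in place of 9. Within a type, vehicle and CR-31 libraries of a number did deviate together (0.36 to 0.91). A replicate block within each organoid type gave 6860 calls, 3389 higher and 3471 lower, and 7943 with CR-31, since it takes each replicate number as fixed and leaves the spread between numbers out of the error. For the interaction with CR-31 the block and DESeq2 each called 1 gene, Gm8909, where edgeR without the block called 0. Depth limits only genes with a few counts, while 3 libraries of each type, on lanes of their own, limit the rest.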
